A study of Mus musculus with 10 samples.

Results

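DDX6 knockout (DDX6 KO) was compared with wild type (WT) in mouse embryonic stem cells (ESCs) by QuantSeq, which counts mRNAs from reads next to the poly(A) tail. The comparison took 7 of the 10 libraries of the series by their titles, 3 from WT cells and 4 from DDX6 KO cells, the latter being 2 libraries from each of 2 knockout clones. The other 3 libraries came from DGCR8 KO cells, which lack a protein needed to process most microRNAs (miRNAs), and enter below only in a direct contrast. Both genotypes grew in serum with LIF and the inhibitors PD0325901, which blocks the kinase MEK, and CHIR99021, which blocks the kinase GSK3, and the labels name no other alteration in either. The knockout was made with CRISPR-Cas9 and a single guide, and each clone grew from a single sorted cell, so a property of a clone and an effect of the knockout cannot be told apart where only 1 clone shows it. The sources do not say whether libraries of a genotype came from separate cultures, and p-values therefore measure the spread between these libraries. The table lists 51467 genes, of which 23416 had at least 1 count in these libraries. The 11380 genes with at least 3 CPM (the count divided by the scaled size of its library) in at least 3 of the 7 libraries were tested.

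DDX6 is an RNA helicase of the DEAD-box family that sits in P-bodies, cytoplasmic granules of untranslated mRNA. It binds the CCR4-NOT complex, which shortens poly(A) tails, and the factors that remove the 5′ cap, and through these contacts it takes part in translational repression and mRNA turnover. miRNA-loaded Argonaute proteins recruit CCR4-NOT through the TNRC6 adaptors, which places DDX6 downstream of miRNAs. In ESCs the most abundant miRNAs, known as the ESCC family, share 1 seed and sustain the rapid cell cycle of these cells. In each library the expression of a gene is the net result of its synthesis and its decay, and the counts described here do not separate these.

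The libraries held between 2131156 and 4745083 counts over genes, and 3 counts, the smallest number taken as measurable, equalled 0.632 to 1.41 CPM. The first principal component carried 61.9% of the variance and had all 3 WT libraries on one side and all 4 DDX6 KO libraries on the other. The ESC identity of both genotypes was checked with 10 markers, whose summed level was 4420 to 4870 CPM in WT and 4290 to 4720 CPM in DDX6 KO. The fibroblast genes Dcn and Postn and the trophoblast genes Elf5 and Tpbpa had no count in any of the 7 libraries, whereas the summed level of the 6 fibroblast markers was 2.75 to 3.93 CPM in WT and 4.56 to 9.26 CPM in DDX6 KO. The 6 primitive endoderm markers summed to 7.78 to 11.3 CPM in WT and 16.8 to 24.4 CPM in DDX6 KO, of which Dab2 made up 3.66 to 8.34 CPM and 12.3 to 19.3 CPM. The 3 neural markers summed to 55.5 to 87.6 CPM in WT and 88.4 to 136 CPM in DDX6 KO, with Sox1 at 27.0 to 41.7 CPM and 69.5 to 116 CPM. The part of other cell types in the changes below was not tested.

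The targeted gene was low in every knockout library. Ddx6 (ENSMUSG00000032097, chr9:44604892-44640731, plus strand, GRCm38) was cut near the start of exon 7 of 14, a coding exon of 95 bases. The first 30 bases of that exon, at chr9:44626388-44626417, are shown because they hold the whole guide target, at bases 3 to 22, with the adjoining PAM that Cas9 requires, at bases 23 to 25, in capitals.
Ddx6 exon 7: tgcatgtggtgatcgctaccccTGGcagga

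The WT libraries had 516, 535 and 601 CPM of Ddx6, the clone 1 libraries 151 and 136 CPM, and the clone 2 libraries 39.5 and 26.2 CPM. All 4 knockout values lay under all WT values, and both clone 2 values lay under both clone 1 values. The mean was 551 ± 44.9 CPM (SD, n = 3) in WT and 88.2 ± 64.4 CPM (SD, n = 4) in DDX6 KO, a remaining level of 16% (log2 fold change -3.07 ± 0.33, SE; limma-voom with Benjamini-Hochberg adjustment, adjusted p = 1.09e-06). Against WT the log2 fold change was -1.95 in clone 1 and -4.12 in clone 2, a difference between the clones of -2.17 (limma-voom, adjusted p = 4.91e-06). The 3′ tags do not cover exon 7, so the counts report the level of the transcript and not the edit itself.

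Loss of DDX6 went with changes in a large part of the transcriptome, in both directions. Of the 11380 genes tested, 2158 (19.0%) were higher and 2148 (18.9%) lower in DDX6 KO at an adjusted p under 0.05. These are called passed below, and every adjusted p is from limma-voom with Benjamini-Hochberg adjustment over all genes tested. The shares of 19.0% and 18.9% stand beside every count of list members below. With a log2 fold change beyond 1 in size as well, 873 (7.67%) were higher and 436 (3.83%) lower, 1309 in all. Among the larger changes, 233 genes rose and 90 fell by more than 2 on the log2 scale. The genes that rose past the fold threshold were of low level in WT, with a median of 4.37 CPM there and 13.3 CPM in DDX6 KO, against a WT median of 29.6 CPM over all genes tested. For those that fell the medians were 16 CPM in WT and 5.69 CPM in DDX6 KO. No WT library reached 3 CPM for 235 of the 873, and no DDX6 KO library reached it for 68 of the 436. Such genes entered the test through one genotype only, as did 347 of all genes tested through DDX6 KO and 73 through WT, and for them a difference was built into the filter.

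The balance of the directions depended on the scaling. Higher genes were 50.1% of those that passed with TMM, the scaling used throughout, and 67.4% with total counts, which placed the median of all genes 0.14 higher on the log2 scale. Scaling to the ERCC spike-ins left 513 genes past the threshold, 71.5% of them higher. The spike-ins took 1.10% to 2.36% of the counts and varied within each genotype with the library number in the labels, from 1.10% to 1.41% in the libraries numbered 1 and from 2.15% to 2.36% in those numbered 2, with 1.20% in WT library 3. All changes given here are relative to the bulk of the transcriptome, and a change in the total mRNA of a cell was not measured.

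Both clones showed most of the larger changes. When each clone was contrasted with WT in 1 model, 1262 genes (11.1%) passed as higher in both and 1214 (10.7%) as lower in both. Of the 1309 genes past both thresholds, 994 (75.9%) passed with the same sign in each clone, 685 higher and 309 lower, and 2 had opposite signs in the clones. The contrasts of the clones share the WT libraries. For 1203 of the 1309 the WT and DDX6 KO libraries did not overlap, beside 40.6% of all genes tested. The 1309 were chosen on these same libraries, so this count and the agreement of the clones are partly set by that choice. Clone 2 was also contrasted with clone 1 directly, and 5 genes (0.0439%) passed, with 332 at an unadjusted p under 0.05. These were Ddx6, Rhox5 and the Y-linked genes Uty, Ddx3y and Eif2s3y, all named because they passed.

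Genes on chromosome 6 stood apart and are marked as such below. Of 550 tested genes there, 336 (61.1%) were higher and 28 (5.09%) lower in DDX6 KO, whereas outside chromosome 6 the 10830 tested genes gave 1822 higher (16.8%) and 2120 lower (19.6%). The median log2 fold change on chromosome 6 was 0.58, and that outside it -0.01. In single libraries the chromosome 6 median stood 0.63 and 0.61 above the WT mean in clone 1, and 0.53 and 0.52 above it in clone 2, which averages to 0.57 ± 0.06 (SD over n = 4 libraries), a 1.49-fold shift. The shift ran along the whole chromosome, since the median of every stretch of 10 Mb was above 0, from 0.38 to 1.05. Of the genes past both thresholds, 130 of the 873 higher (14.9%) and 16 of the 436 lower were on chromosome 6, which held 4.83% of the genes tested. The medians of the other autosomes lay between -0.08 and 0.07, that of the X chromosome was 0.14, and that of the mitochondrial genome was -0.65. An effect of the knockout and a gain of chromosome 6 copies shared by both clones cannot be told apart in these counts, and each list below is also given without its chromosome 6 members where this changes the picture.

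**Figure D1:**
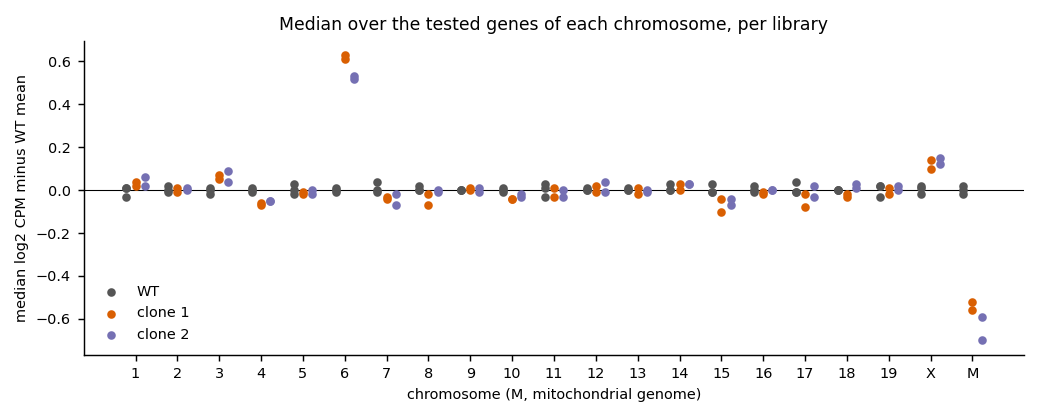
Median, over the tested genes of each chromosome, of the log2 CPM in a library minus the WT mean (vertical axis) by chromosome (horizontal axis, M being the mitochondrial genome), with 1 point a library for WT, clone 1 and clone 2. The 4 DDX6 KO points of chromosome 6 lie between 0.52 and 0.63, apart from those of every other chromosome, and those of the mitochondrial genome lie below 0.

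The largest increases outside chromosome 6 were in genes nearly silent in WT. They were ranked among genes that passed both thresholds and passed in both clones, averaging 10 CPM or more and without overlap between the genotypes, which 310 higher and 184 lower genes outside chromosome 6 satisfied. Spry4, which encodes a feedback inhibitor of receptor tyrosine kinase signalling, had 2.45, 0.348 and 0.916 CPM in WT, 31.5 and 22.8 CPM in clone 1, and 49.1 and 31.7 CPM in clone 2. Its log2 fold change of 4.90 ± 0.63 (SE, adjusted p = 7.15e-06) was the highest of the ranked genes. Igfbp7, a secreted binding protein of insulin-like growth factors (chr5:77349240-77408041, minus strand), had 0, 2.78 and 2.52 CPM in WT and 28.5, 41.1, 26.7 and 67.3 CPM in DDX6 KO, a log2 change of 4.74 ± 0.80 (adjusted p = 0.000134). The spread of Igfbp7 among the knockout libraries was wide, and the lowest of them was still far above the highest WT library. For Spry4 and Igfbp7 no WT library reached 3 CPM, so a difference was built into the filter.

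Rbm24, an RNA-binding protein known from muscle (chr13:46418300-46431090, plus strand), had 0.982, 0.695 and 1.37 CPM in WT and between 18.5 and 27.4 CPM in DDX6 KO. Sh3bgrl, a small protein with a thioredoxin-like fold, rose from a mean of 1.52 ± 0.795 to 28.5 ± 4.83 CPM, and Crym, which binds thyroid hormone, from 1.67 ± 0.728 to 18.9 ± 4.91 CPM. Slc25a24, a carrier of the inner mitochondrial membrane, rose from 1.59 ± 0.554 to 17.4 ± 3.22 CPM, and the epithelial keratin Krt17 from 1.93 ± 1.25 to 19 ± 6.53 CPM. These 5 genes had log2 fold changes of 3.24 to 4.24, and none exceeded 11 counts in a WT library, so the size of the fold is imprecise. They too reached 3 CPM in no WT library, so a difference was built into the filter for them. The adhesion receptor Adgrg1 (log2 3.21 ± 0.35) and the mRNA export factor Nxt2 (log2 3.0 ± 0.35) followed. Ubd, a ubiquitin-like modifier (chr17:37193892-37196095, plus strand), started from a measurable level, with 30.9, 26.4 and 22.2 CPM in WT and 215, 181, 212 and 195 CPM in DDX6 KO. Its groups were far apart and each was tight, and the change of 2.97 ± 0.15 on the log2 scale (adjusted p = 1.67e-10) was among those with the smallest p.

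Among the ranked genes, the largest decrease was in a gene of uridine metabolism. Upp1, which encodes uridine phosphorylase, the enzyme that splits uridine (chr11:9118103-9136170, plus strand), had 490, 582 and 690 CPM in WT, 38.1 and 73.7 CPM in clone 1, and 28.8 and 55.3 CPM in clone 2. The knockout mean was 8.34% of WT (log2 -3.66 ± 0.19, SE, adjusted p = 1.67e-10). Acaa2, the thiolase of mitochondrial fatty acid oxidation, had 93.2, 75.8 and 88.3 CPM in WT and 7.04, 11.9, 9.24 and 11.7 CPM in DDX6 KO (log2 -3.09 ± 0.20). Both enzymes were low in every library of both clones.

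The other large decreases named by rank were in genes of varied function. The presynaptic protein gene Rims1 fell from 24.2 ± 5.50 to 2.02 ± 0.919 CPM, and Smtnl1, a muscle protein gene, from 22 ± 4.34 to 2.07 ± 0.784 CPM. Smtnl1 reached 3 CPM in no DDX6 KO library and so entered the test through WT only. Dnah8, an axonemal dynein heavy chain, had 74.6, 56.0 and 65.0 CPM in WT and 6.28 to 9.26 CPM in DDX6 KO. Spic, a transcription factor of the ETS family, fell from 33.9 ± 7.63 to 4.42 ± 3.04 CPM, and Khdc3, a gene of the maternal store of the oocyte, from 51.0 ± 26.6 to 6.49 ± 2.95 CPM. Cidea, a protein of lipid droplets (29.8 ± 10.3 to 3.94 ± 1.59 CPM), the protocadherin Pcdh19 (23.3 ± 5.58 to 3.25 ± 0.858 CPM) and the transcription factor Olig1 (42.5 ± 4.59 to 7.23 ± 4.68 CPM) completed the 10. Every log2 fold change from Rims1 to Olig1 lay between -3.57 and -2.77.

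On chromosome 6, the changes below exceed the shift of the chromosome several times over. Vax2, a homeobox gene of the ventral eye (chr6:83711264-83738313, plus strand), had 6.87, 3.13 and 4.81 CPM in WT and 63.3, 92.7, 56.2 and 66.2 CPM in DDX6 KO (log2 3.86 ± 0.34). Smyd1, a methyltransferase of striated muscle, rose from 5.84 ± 3.34 to 63.9 ± 20 CPM, and the focal adhesion protein gene Zyx from 1.84 ± 0.521 to 17.5 ± 2.68 CPM. Zyx reached 3 CPM in no WT library and so entered the test through DDX6 KO only. Emp1, a membrane protein of epithelial cells, had 20.6, 36.8 and 34.3 CPM in WT and 276, 331, 246 and 236 CPM in DDX6 KO (log2 3.11 ± 0.18). Against the direction of the chromosome, the bicarbonate transporter gene Slc4a5 had 47.1, 45.5 and 54.2 CPM in WT and 2.81 to 7.41 CPM in DDX6 KO, and the lactate dehydrogenase subunit gene Ldhb had 25.0, 39.3 and 32.7 CPM in WT and 7.37 to 8.89 CPM in DDX6 KO.

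**Figure D2:**
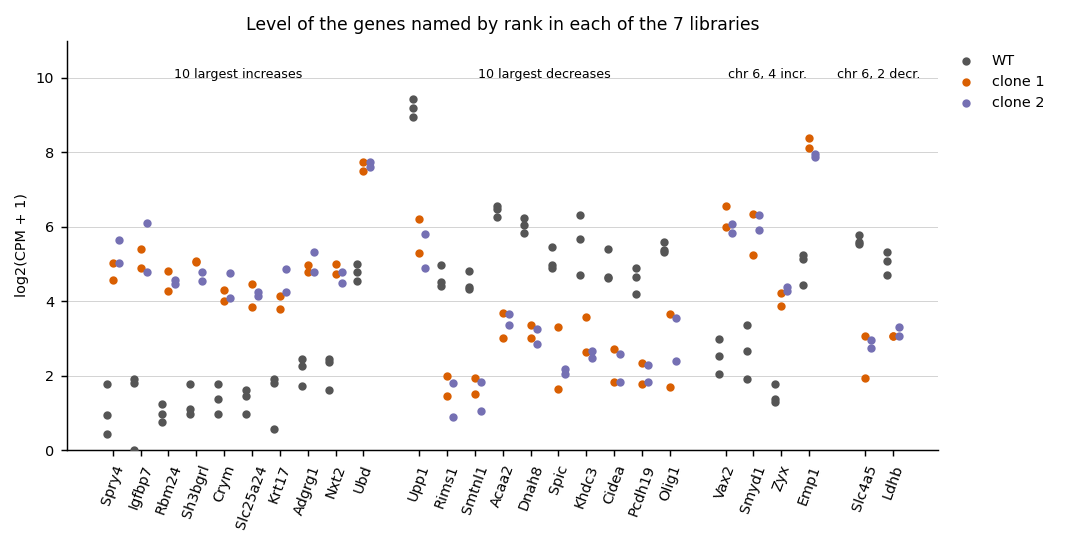
Level of the 26 genes ranked by the size of their change (horizontal axis) as log2(CPM + 1) in each of the 7 libraries (vertical axis), with grey points for WT, orange for clone 1 and violet for clone 2. In each gene the 4 DDX6 KO points lie on one side of the 3 WT points, as the ranking rule required.

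The transcripts of the machinery that DDX6 works with moved in both directions. Of 39 genes listed for P-bodies and decapping, 37 were tested, and 8 were higher and 9 lower, a median log2 fold change of 0.02 beside 0.01 over all genes. The order of these counts was turned to more higher than lower members by 10 of the 21 alternative settings, so the list has no settled direction. The cold-shock protein gene Ybx1, whose product coats mRNA, fell from 2290 ± 189 to 1660 ± 104 CPM, and the RNA-binding protein gene Mex3b from 119 ± 3.08 to 67.7 ± 17.6 CPM. Lsm2 and Lsm4, subunits of the ring that binds decapping substrates, fell to 70.2% and 73.9% of WT. Cpeb4, which controls cytoplasmic polyadenylation, had 7.85, 15.6 and 12.4 CPM in WT and 34.4, 29.1, 36.3 and 30.5 CPM in DDX6 KO, and rose 2.68-fold (adjusted p = 5.4e-05). Nudt16, a decapping enzyme, did not exceed 3 counts in WT and stood at 3.71 to 4.56 CPM in DDX6 KO.

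Of 27 genes of the CCR4-NOT and PAN deadenylases and their partners, 24 were tested, with 7 (29.2%) higher, 6 (25.0%) lower and a median of 0.08, beside 19.0% and 18.9% of all genes tested. Without WT library 3 the counts were 4 and 3, and in clone 2 alone 4 and 4. Zfp36l1, an adaptor that binds AU-rich elements, rose from 148 ± 20.2 to 308 ± 35.7 CPM, and Tob1 from 48.4 ± 13.2 to 97.7 ± 12.1 CPM. The catalytic subunit gene Cnot6l rose 1.71-fold and Cnot4, a ubiquitin ligase on chromosome 6, 1.59-fold. Nanos1, a repressor that also recruits CCR4-NOT, fell from 14.5 ± 0.876 to 4.78 ± 1.37 CPM, and the scaffold Cnot1 fell to 78.2% of WT.

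Both miRNA adaptors named by the rule rose, while several factors of miRNA processing fell. Tnrc6a (chr7:123124181-123195296, plus strand) had 143, 120 and 114 CPM in WT and 302, 288, 294 and 282 CPM in DDX6 KO, a 2.36-fold increase (log2 1.24 ± 0.10, adjusted p = 4.18e-08). Tnrc6b rose from 58.3 ± 5.66 to 127 ± 8.56 CPM. Both genes were higher in each of the 4 DDX6 KO libraries than in any WT library. The libraries of the genotypes were likewise apart, in either direction, for 40.6% of all genes tested. Lin28a, which blocks maturation of let-7 miRNAs (chr4:134003330-134018841, minus strand), had 62.3, 47.6 and 76.9 CPM in WT and 18.5, 18.2, 13.5 and 23.7 CPM in DDX6 KO, a log2 change of -1.75 ± 0.20 and of -1.75 in each clone. Argonaute 2 (Ago2) fell from 527 ± 52.0 to 385 ± 23.4 CPM, the export receptor Xpo5 from 75.0 ± 13.1 to 44.2 ± 5.27 CPM, and the helicase Ddx17 from 802 ± 21.7 to 579 ± 60.9 CPM. Over the 17 tested of 19 listed genes, 4 were higher and 6 lower, a median of -0.28, and total-count scaling turned this to 6 higher and 5 lower.

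To ask how mRNAs with sites for the ESCC miRNAs compare with the rest, 3′ UTRs of the annotation were searched for matches to the seed of this family. The 4 mature miRNAs below are shown because they define that seed, which is bases 2 to 8 in capitals and is identical in all 4 (RefSeq, GRCm38.p6).
miR-291a-3p: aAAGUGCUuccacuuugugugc
miR-294-3p: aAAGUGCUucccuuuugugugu
miR-295-3p: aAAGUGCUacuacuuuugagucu
miR-302b-3p: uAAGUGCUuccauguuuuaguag

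The first 3 come from 1 cluster on chromosome 7, miR-291a-3p lying at chr7:3218968-3218989, and the fourth from chromosome 3 (chr3:127545275-127545297). A 3′ UTR was counted as a match when its sense strand held AGCACTT, the complement of the seed, or GCACTTA, which has A opposite the first base, and these motifs overlap in GCACTT. In the annotation 3354 genes had a match and 17282 had none. Of 2114 tested genes with a match, 521 (24.6%) were higher and 308 (14.6%) lower in DDX6 KO, with a median log2 fold change of 0.11. Of 8567 tested genes without a match, 1560 (18.2%) were higher and 1666 (19.4%) lower, with a median of 0.00. Outside chromosome 6 the medians were 0.09 and -0.02. Genes with a match also tend to have long 3′ UTRs, a feature that itself went with the change (below), and the part of each was not tested.

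The sensors and effectors of nonsense-mediated decay, which degrades mRNAs with premature stops, tended to be lower. Of the 22 listed, all tested, 9 (40.9%) fell and 1 (4.55%) rose, with a median of -0.28. Over all genes tested 18.9% were lower and 19.0% higher. Among the 2845 tested genes of highest level (below), 34.8% were lower, and the list was not compared with genes of its own level. The exon junction proteins Rbm8a (671 ± 34.8 to 478 ± 36.8 CPM) and Eif4a3 (531 ± 63.0 to 371 ± 9.17 CPM) fell to 71.3% and 69.9% of WT. Upf3a fell to 68.9% and the release factor gene Etf1 to 75.2%. The member that rose, Magohb, is on chromosome 6, and had 9.32, 9.73 and 11.4 CPM in WT and 37.8, 29.1, 23.5 and 14.8 CPM in DDX6 KO.

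Naive pluripotency genes stayed near WT as a list, with changes in both directions. All 17 listed genes were tested, 4 were higher and 5 lower, and the median was -0.03. The core factors Pou5f1 and Sox2, given here as markers of ESCs, did not pass (adjusted p = 0.644 and 0.201), and lay between 44.8 and 61.6 CPM and between 497 and 614 CPM over all 7 libraries. Nanog, a core pluripotency factor on chromosome 6, had 617, 604 and 525 CPM in WT and 863, 802, 915 and 940 CPM in DDX6 KO, a 1.52-fold rise that is close to the 1.49-fold shift of its chromosome. Tbx3, outside chromosome 6, rose 1.49-fold, from 466 ± 64.7 to 695 ± 15.9 CPM. Sall4, a zinc finger factor of ESC self-renewal, fell from 268 ± 33.9 to 130 ± 20.8 CPM, and Tcl1, a coactivator of AKT, from 117 ± 15.9 to 56.7 ± 16.3 CPM. Dppa3, a maternal factor on chromosome 6, fell from 14.6 ± 1.86 to 3.63 ± 1.86 CPM, and the growth factor Fgf4 fell to 73.7% of WT.

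Of 20 genes of the formative and primed states, 11 were tested, 2 were higher and 4 lower, and the median was -0.18. Among the 10 that reached the filter in both genotypes, 2 were higher and 3 lower, which is too few to read a direction from. Otx2, a transcription factor that drives exit from naive pluripotency, had 39.3, 39.6 and 30.9 CPM in WT and 8.52, 8.07, 9.95 and 4.85 CPM in DDX6 KO, and fell to 21.4% of WT (adjusted p = 1.03e-06). The DNA methyltransferase gene Dnmt3b had 199, 146 and 252 CPM in WT and 68.2 to 89.2 CPM in DDX6 KO. Lef1, a transcription factor of the Wnt pathway, had 19.1, 9.73 and 15.1 CPM in WT and no more than 3 counts in any DDX6 KO library (adjusted p = 2.26e-06), which is at the floor of measurement. Foxd3 fell to 62.0% of WT. The other de novo methyltransferase gene, Dnmt3a, moved the other way, from 87.1 ± 28.4 to 124 ± 11.8 CPM, as did Sox3, from 5.35 ± 2.59 to 12.2 ± 4.70 CPM.

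Lineage genes showed no common direction. Of 22 neural genes, 12 were tested, with 3 higher, 5 lower and a median of -0.40. Neurofilament genes fell, Nefl from 98.5 ± 28.1 to 25.8 ± 3.85 CPM and Nefm from 48.4 ± 17.7 to 8.70 ± 3.15 CPM, along with Stmn2, to 68.2% of WT, and Nes, to 52.5%. Sox1, a transcription factor of neural progenitors, instead had 27.0, 41.7 and 36.6 CPM in WT, 71.5 and 69.5 CPM in clone 1, and 116 and 114 CPM in clone 2. Of 15 trophoblast genes, 7 were tested and 4 were higher, among them Plet1 (19.3 ± 5.48 to 82.6 ± 18.0 CPM), Gata2 on chromosome 6 (3.29 ± 1.90 to 11.7 ± 2.79 CPM) and the keratin genes Krt8 and Krt18, which are shared with other simple epithelia. Tfap2c and Gata3 fell to 65.1% and 53.5% of WT, although Tfap2c passed in neither clone and Gata3 only in clone 1. Of 18 primitive endoderm genes, 8 were tested, 2 were higher and 1 lower, Lamb1 rising 2.21-fold and Dab2 2.91-fold and Lrp2 falling to 57.4%. Transcripts from a few cells of another type and a low level in every cell cannot be told apart in bulk RNA, for these lists and for those that follow.

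Germline genes that DNA methylation is known to silence were the list with the highest share of members that rose, among lists and classes with at least 10 tested members. Of 39 listed, 23 were tested, and 16 (69.6%) were higher and 1 (4.35%) lower, with a median log2 fold change of 1.36. In both clones 14 rose and none fell. Of the 23, 5 reached the filter through DDX6 KO libraries only, and among the other 18 there were 11 higher and 1 lower. Piwil2, an Argonaute-like protein that binds piRNAs, had 7.85, 13.9 and 9.16 CPM in WT and 51.1, 59.3, 54.0 and 43.1 CPM in DDX6 KO, a 5.01-fold rise (log2 2.33 ± 0.23, adjusted p = 3.18e-07). Tex11, a meiotic recombination gene on the X chromosome, had 8.83, 10.4 and 8.01 CPM in WT and 36.7, 43.5, 40.2 and 38.5 CPM in DDX6 KO. The germ cell helicase gene Ddx4 rose from 12.6 ± 4.56 to 47.8 ± 6.76 CPM, and the piRNA helicase gene Mov10l1 from 2.65 ± 0.765 to 18.8 ± 2.5 CPM.

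The exception was Rhox5, an X-linked homeobox gene, which had 45.1, 36.8 and 35.7 CPM in WT, 31.8 and 29.8 CPM in clone 1, and 5.69 and 10.3 CPM in clone 2. Only clone 2 passed against WT for it (log2 -2.26, against -0.31 in clone 1), and the clones differed by -1.95 (adjusted p = 0.0186). Of 19 genes of the 2-cell state, 4 were tested and all 4 were higher, but each reached the filter through DDX6 KO libraries only. Zscan4c had 0.491 to 2.29 CPM in WT and 4.56 to 12 CPM in DDX6 KO. Usp17la, Usp17lc and Usp17le did not exceed 4 counts in any WT library. Rhox, Zscan4 and Usp17l genes have near-identical copies, and since reads were kept only where they mapped uniquely, the counts of single members are uncertain.

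The enzymes of DNA methylation and demethylation were divided, with 5 of 18 tested members higher, 5 lower and a median of 0.30. Besides Dnmt3b and Dnmt3a, Mbd3, a subunit of the NuRD complex, fell to 53.7% of WT. The dioxygenase genes Tet2 (316 ± 25.0 to 443 ± 34.5 CPM) and, on chromosome 6, Tet3 (19.9 ± 3.61 to 59.7 ± 4.75 CPM) rose, as did the chromosome 6 gene Gadd45a, 3.98-fold. Tet3 and Gadd45a rose well beyond the 1.49-fold shift of that chromosome. Of 37 Polycomb and other silencing genes, 36 were tested, with 7 higher, 5 lower and a median of 0.03. The histone methyltransferase gene Suv39h1 rose 2.47-fold, and Ezh1 rose 1.41-fold. Ezh2, on chromosome 6, rose 1.33-fold. The heterochromatin factors Atrx (821 ± 70.2 to 453 ± 46.9 CPM) and Trim28 (926 ± 200 to 555 ± 64.2 CPM) fell.

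Among 48 imprinted genes, 34 were tested, 10 were higher and 5 lower. All 5 tested imprinted genes on chromosome 6 were higher, and outside it there were 5 in each direction. Mest, on chromosome 6, had 72.1, 74.7 and 58.6 CPM in WT and 364, 280, 482 and 412 CPM in DDX6 KO, and Peg10, also there, 13.7, 9.73 and 11 CPM in WT and 78.5, 49.1, 78.2 and 62.8 CPM in DDX6 KO. Both are known to be expressed from the paternal copy, and their rise of 5.62-fold and 5.83-fold was several times the shift of the chromosome. Ppp1r9a on the same chromosome rose 1.68-fold and the ubiquitin ligase gene Ube3a, on chromosome 7, 1.33-fold, whereas Mcts2 and Plagl1 fell to 42% and 51.9% of WT.

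Most tested genes of class I antigen presentation were higher in DDX6 KO, but their summed level was not. Of 16 listed genes, 8 were tested, and 5 (62.5%) were higher and none lower, beside 19.0% and 18.9% of all genes tested. All 5 were higher in both clones. The median was 0.94, and 0.90 without the single chromosome 6 member. The 8 genes summed to 1670 to 1890 CPM in WT and 1570 to 1780 CPM in DDX6 KO. B2m, the light chain of class I molecules, had 12.8, 12.9 and 9.61 CPM in WT and 38.5, 36.8, 30.6 and 31.7 CPM in DDX6 KO (3.0-fold, adjusted p = 8.91e-06). Tapbp, a peptide-loading chaperone, rose 1.87-fold and the heavy chain genes H2-D1 and H2-K1 1.97-fold and 2.12-fold, although these heavy chains are similar in sequence and their reads may be divided. Interferon-stimulated and double-stranded RNA sensing genes gave 6 (26.1%) higher and 2 (8.7%) lower of 23 tested, a median of 0.34. The shares over all genes tested were 19.0% and 18.9%. Among the 21 members that reached the filter in both genotypes, 4 were higher and 2 lower. Oasl1, which reached it through DDX6 KO libraries only, had 0, 0 and 0.916 CPM in WT and 5.92 to 9.48 CPM in DDX6 KO. Tmem173 (STING) rose 2.31-fold and Eif2ak2 (PKR) 1.44-fold, while Trim25 and Ifitm1 fell to 64.2% and 61.9% of WT.

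Genes of FGF and ERK signalling changed in a divided manner, in cells kept in a MEK inhibitor. Of 30 feedback regulators and targets, 23 were tested, 11 (47.8%) were higher and 5 (21.7%) lower, with a median of 0.76. The shares over all genes tested were 19.0% and 18.9%. Spry4 and Plaur reached the filter through DDX6 KO libraries only, so a difference was built into it for them. Among the other 21 there were 9 higher and 5 lower. Besides Spry4, the ETS factor gene Etv4 had 19.1, 22.9 and 25.9 CPM in WT and 85.2, 89.5, 96.7 and 91.9 CPM in DDX6 KO (log2 1.96 ± 0.15, adjusted p = 1.75e-08). Its close relative Etv5 had 137, 105 and 157 CPM in WT and 34.8, 35.8, 40.2 and 49.4 CPM in DDX6 KO (log2 -1.72 ± 0.16, adjusted p = 1.19e-07). The members of this pair thus moved in opposite directions in every library. The Sprouty pair was split in the same way, with Spry2 at 87.4, 104 and 127 CPM in WT and 44.1 to 59.3 CPM in DDX6 KO. Spred1, another inhibitor of the pathway, rose 2.49-fold, and Plaur, the urokinase receptor gene, rose from 1.13 ± 0.211 to 12.8 ± 2.84 CPM.

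Other signalling lists were mixed. For Nodal and activin, 17 of 21 were tested, with 4 in each direction. The ligand subunit gene Inhbb had 5.40, 4.87 and 7.32 CPM in WT and 25.2, 49.8, 27.7 and 59.3 CPM in DDX6 KO, and Smad7, Dact2 and Acvr2a rose 1.30-fold to 1.48-fold. Dact2 passed in neither clone and Acvr2a only in clone 2. The Nodal antagonist Lefty2 had 502, 329 and 287 CPM in WT and 122, 65.6, 96.7 and 47.1 CPM in DDX6 KO, and the processing protease gene Pcsk6 fell to 40.7% of WT. For BMP, 14 of 25 were tested, 4 were higher and 1 lower. The receptor genes Bmpr2 and Acvr1 and the effector Smad5 rose 1.55-fold to 1.65-fold, and the target Id1 1.80-fold, whereas Id2 fell to 60.2%. Acvr1 passed only in clone 1 and Id1 only in clone 2.

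For Wnt, 25 of 41 were tested, 5 were higher and 6 lower, an order that 6 alternative settings turned. The coreceptor gene Lrp6 on chromosome 6 rose 2.29-fold and the receptor gene Fzd7 3.12-fold. The targets Cdx1 and Sp5 fell to 44.3% and 45.0% of WT, Lef1 to the floor, and the secreted antagonist Sfrp1 to 74.3%. For LIF and STAT signalling, 22 of 23 were tested, 7 were higher and 5 lower, with a median of 0.24. Stat5a rose 2.60-fold, Jak2 1.81-fold and the feedback inhibitor Socs2 1.57-fold, while Pim1 and Tfcp2l1 fell to 66.7% and 70.2%. For the Hippo pathway 26 of 29 were tested, 7 were higher and 4 lower. The kinase cofactor gene Mob1a and the DNA-binding partner Tead4, both on chromosome 6, rose 1.97-fold and 1.51-fold, and Mob1b 1.5-fold. The target Ccn2 had 227, 230 and 160 CPM in WT and 78.9, 68.4, 121 and 52.2 CPM in DDX6 KO, and Tead2 fell to 66.4%.

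**Figure D3:**
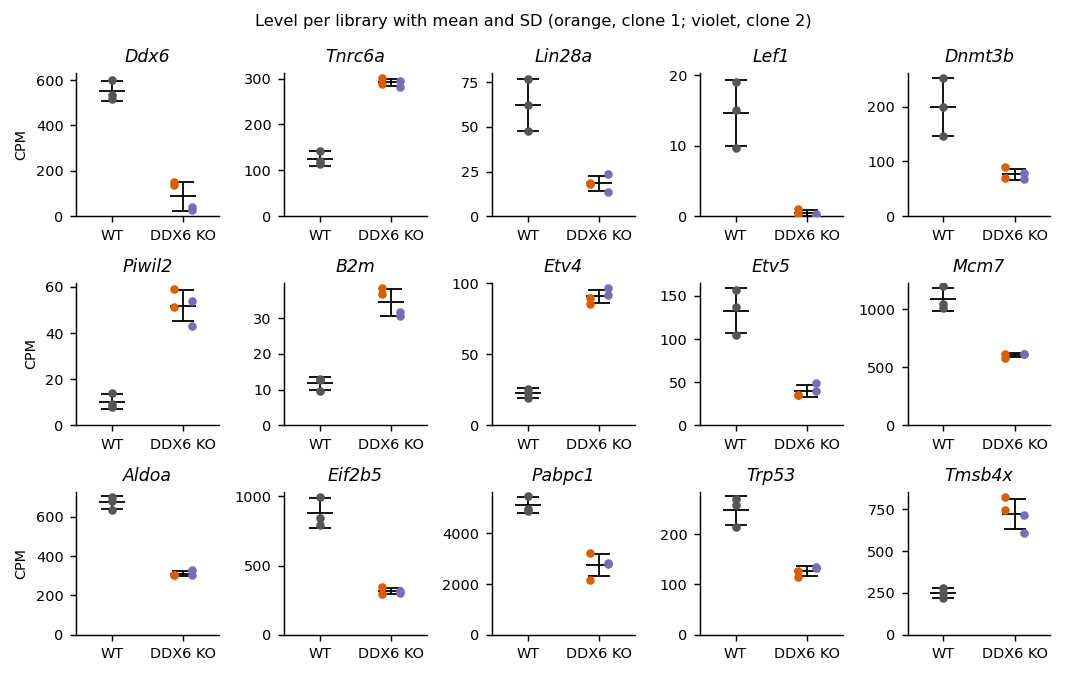
Level in CPM (vertical axis, from 0) of 15 genes in WT and DDX6 KO, with 1 point a library (grey for WT, orange for clone 1, violet for clone 2) and a bar for the mean and SD of each genotype. In each panel the 4 DDX6 KO libraries lie on one side of the 3 WT libraries, as they do for 40.6% of all genes tested. For Ddx6 the clone 2 points, at 39.5 and 26.2 CPM, lie under those of clone 1.

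Of 41 genes of replication licensing and firing, all tested, 19 (46.3%) were lower and none higher, with a median of -0.32, and 16 were lower in both clones. Mcm7, a subunit of the replicative helicase, had 1050, 1010 and 1200 CPM in WT and 582, 612, 617 and 619 CPM in DDX6 KO (log2 -0.84 ± 0.08, adjusted p = 3.29e-07), and Mcm3 fell to 56.7% of WT. The DNA ligase gene Lig1 fell to 57.6% and Gmnn, the inhibitor of licensing, to 56.3%. The changes of the list were moderate, with log2 fold changes of its members from -0.84 to 0.24. Of 30 mitosis genes, all tested, 13 (43.3%) were lower and 1 higher, the latter being Mad2l1 on chromosome 6 (1.47-fold). Cdc20, an activator of the anaphase-promoting complex, fell from 342 ± 42 to 174 ± 9.77 CPM, the kinase gene Plk1 to 60.7%, the checkpoint gene Bub3 to 64.6% and Cdk1 to 70.7%. Spike-in scaling left no member of either list past the threshold, with medians of -0.21 and -0.14. Over all genes tested 18.9% were lower, and among the 2845 of highest level (below) 34.8% were. Neither list was compared with genes of its own level.

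G1/S regulators went both ways, with 5 of 27 tested higher and 6 lower, an order that total-count scaling and clone 2 alone turned. The cyclin genes Ccnd3 and Ccnd1 fell to 56.2% and 72.1% of WT, the kinase gene Cdk4 to 63.4% and the transcription factor gene E2f1 to 56.4%. Cdk6 had 91.3, 68.5 and 83.8 CPM in WT and 198, 177, 199 and 158 CPM in DDX6 KO. The cell cycle inhibitor gene Cdkn1b, on chromosome 6, rose 2.00-fold. Of 23 tested genes of the p53 pathway, 7 were lower, all 7 in both clones, and 2 higher. Trp53 itself had 258, 215 and 269 CPM in WT and 126, 114, 132 and 135 CPM in DDX6 KO (51.1% of WT, adjusted p = 1.55e-06), and the targets Zmat3 and Phlda3 fell to 62.0% and 65.2%. Rrm2b and Ckap2 rose 2.07-fold and 1.26-fold, although Ckap2 passed in neither clone. Of 12 tested BCL2 family genes, the pro-apoptotic Bax and Bbc3 fell to 52.0% and 49.8% and the anti-apoptotic Mcl1 to 63.8%, while Bid, on chromosome 6, rose 1.94-fold. Replication-dependent histone genes, whose mRNAs mostly lack a poly(A) tail and are poorly captured by this method, had 18 of 65 tested, with 6 lower and none higher.

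Glycolysis was lower outside chromosome 6. Of 25 listed genes, 24 were tested, 14 (58.3%) were lower and 4 higher, a median of -0.56, and without the 6 members on chromosome 6 there were 13 lower and 1 higher of 18, a median of -0.73. Aldoa, the aldolase gene, had 683, 636 and 701 CPM in WT and 303, 306, 330 and 306 CPM in DDX6 KO (log2 -1.12 ± 0.08, adjusted p = 1.18e-08). The phosphofructokinase gene Pfkp fell to 41.3% and the pyruvate kinase gene Pkm to 52.7% of WT. All libraries of the 2 genotypes were apart for both, as they were for 40.6% of all genes tested. The glucose transporter gene Slc2a3, on chromosome 6, rose 1.87-fold, from 1010 ± 12.8 to 1920 ± 281 CPM, and the enolase gene Eno3, on chromosome 11, 2.26-fold.

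Sterol synthesis was lower too, with 11 of 24 tested members lower (45.8%), 2 higher and a median of -0.40. Sqle, the squalene epoxidase, fell from 116 ± 12.5 to 59.3 ± 9.30 CPM, and Acat2 fell to 70.3% of WT. Hsd17b7 and Ebp rose 1.64-fold and 1.30-fold. For fatty acids the list of 28 gave 8 higher and 6 lower, an order turned by 6 settings. Acacb, Acadl, Me1 and Acadvl rose 1.37-fold to 2.14-fold, whereas the synthase gene Fasn fell to 58.2% of WT and Acaa2 to 11.6%. In the nucleotide list 5 of 17 tested members were lower and 2 higher, which total-count scaling turned to 4 and 5. The uridine kinase gene Uck2 fell to 50.4%, and Cad and Umps, which make pyrimidines from simple precursors, to 61.2% and 60.6%, beside Upp1. Pnp2 and Uckl1 rose 4.15-fold and 2.23-fold.

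Mitochondrial genes were lower in both genomes. All 7 tested mitochondrially encoded subunits of the respiratory chain fell in both clones, by 0.55 to 0.86 on the log2 scale. Of 78 tested nuclear genes of the chain, 34 (43.6%) were lower and 4 higher, with a median of -0.27, and 3 of the 4 that rose were on chromosome 6. Of 74 tested mitochondrial ribosomal proteins, 30 (40.5%) were lower and 1, on chromosome 6, higher. In the list of oxidative stress and iron, 12 of 25 tested were lower and 6 higher, which spike-in scaling turned to 0 and 1. The transferrin receptor gene Tfrc fell to 55.8% of WT, Prdx6 to 54.2%, Sod1 to 69.9% and Gsta4 to 63.3%. Slc40a1, the iron exporter ferroportin, had 2 or fewer counts in each WT library and 5.42 to 12.4 CPM in DDX6 KO, and the quinone reductase gene Nqo1 rose 2.13-fold.

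Genes of protein synthesis were mostly lower. Of 81 tested cytosolic ribosomal protein genes, 56 (69.1%) were lower and 1 higher, with a median log2 fold change of -0.61, and 43 were lower in both clones. Of 46 translation factors, all tested, 29 (63.0%) were lower and 3 higher, with a median of -0.43, and 25 were lower in both clones. Eif2b5, the catalytic subunit of the exchange factor eIF2B (chr16:20498817-20509955, plus strand), had 845, 790 and 997 CPM in WT and 297, 343, 300 and 318 CPM in DDX6 KO, 35.8% of WT (log2 -1.48 ± 0.10, adjusted p = 1.81e-09). Eif2s2, a subunit of eIF2, had 1710, 1680 and 1790 CPM in WT and 700, 725, 708 and 828 CPM in DDX6 KO.

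The poly(A)-binding protein gene Pabpc1 fell from 5110 ± 324 to 2760 ± 436 CPM and the elongation factor gene Eef1b2 from 2130 ± 40.8 to 1330 ± 63.8 CPM. The scaffold gene Eif4g3 and the elongation factor kinase gene Eef2k rose 2.18-fold and 1.60-fold. With total-count scaling 52 ribosomal protein genes and 24 translation factors were still lower, and with spike-in scaling the medians were -0.53 and -0.34, with 1 gene lower in each set. Ribosomal protein genes have many processed copies in the genome, and their level among uniquely mapped reads is uncertain. Of 16 tested host transcripts of small nucleolar RNAs, many of which hold a terminal oligopyrimidine tract like ribosomal protein mRNAs, 10 were lower and 1 higher, with a median of -0.82.

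Of 24 heat shock and chaperonin genes, all tested, 16 (66.7%) were lower and 4 higher. The mitochondrial chaperonin pair Hspd1 and Hspe1 fell to 58.3% and 57.1% of WT, the cytosolic chaperonin subunit gene Cct3 to 66.3% and Hsp90ab1 to 70.3%. The other cytosolic HSP90 gene, Hsp90aa1, rose 1.27-fold and Hspa4l 2.77-fold. Of 41 tested proteasome subunits, 22 (53.7%) were lower and 1 higher. Autophagy and lysosome genes gave 13 higher and 8 lower of 49 tested, a median of 0.14. Gabarapl1, on chromosome 6, rose 3.31-fold, the receptor gene Sqstm1 1.58-fold, Wipi1 2.12-fold and Rb1cc1 1.55-fold, while the initiating kinase gene Ulk1 and Atg14 fell to 60.4% and 61.1%.

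Targets of the integrated stress response, which is set by eIF2, gave 9 higher and 7 lower of 42 tested, a median of 0.08, and leaving out WT library 2 turned the order to 8 and 9. The transcription factor genes Atf3 (2.47 ± 1.26 to 11.8 ± 3.95 CPM) and Cebpb (2.36 ± 2.51 to 9.14 ± 1.1 CPM) rose from low levels. Eif2ak3 (PERK) and Mthfd2, both on chromosome 6, rose 1.76-fold and 1.39-fold. Eprs, an aminoacyl-tRNA synthetase, and Psat1, of serine synthesis, fell to 69.6% and 61.9% of WT. The unfolded protein response gave 3 higher, of which Edem1 and Pdia4 are on chromosome 6 and Syvn1 is not, and 2 lower, Canx and Pdia6, of 20 tested, an order that the fit with the library number as a block turned. Syvn1 and Pdia6 passed in neither clone.

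Of 30 mesenchymal genes 21 were tested, of which 10 (47.6%) were higher and 2 lower, with a median of 0.68, and 9 were higher in both clones. Among the 19 that reached the filter in both genotypes, 8 were higher and 2 lower. Cald1, which binds actin and is on chromosome 6, had 211, 147 and 136 CPM in WT and 665, 546, 755 and 643 CPM in DDX6 KO. Tagln2, also an actin-binding protein gene, had 314, 324 and 290 CPM in WT and 716, 684, 785 and 672 CPM in DDX6 KO. The membrane protease gene Mmp14 rose 3.96-fold and the galectin gene Lgals1 2.06-fold. The members that fell were the fibronectin gene Fn1, from 554 ± 5.48 to 253 ± 14.9 CPM, and the vimentin gene Vim, to 69.7% of WT, which passed in neither clone alone (adjusted p = 0.0524 and 0.109).

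Of 43 tested genes of actin and adhesion, 13 (30.2%) were higher and 6 lower, the former beside 19.0% of all genes tested. Among the 40 that reached the filter in both genotypes, 10 were higher and 6 lower. Tmsb4x, which binds actin monomers, had 282, 249 and 218 CPM in WT and 746, 824, 608 and 713 CPM in DDX6 KO (2.92-fold, adjusted p = 6.34e-09), Lpp rose 3.38-fold, and Anxa1 rose from 0.808 ± 0.875 to 11.1 ± 1.94 CPM. The actin crosslinker gene Actn1 fell to 56.0% of WT. Of 26 tested epithelial genes 8 (30.8%) were higher and 2 (7.69%) lower, and 7 and 2 among the 25 that reached the filter in both genotypes. The tight junction gene Cldn4 had 146, 209 and 175 CPM in WT and 407, 403, 453 and 356 CPM in DDX6 KO, and Jup, Krt8 and Pkp3 rose 1.48-fold, 3.79-fold and 2.47-fold, while Dsp fell to 62.1% of WT. Of 5 tested keratin genes, 4 were higher and none lower.

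Basement membrane genes were divided, with 4 of 17 tested collagens, laminins and linkers higher and 5 lower. Nid1, which links laminin to collagen, had 301, 330 and 281 CPM in WT and 105, 108, 87.5 and 110 CPM in DDX6 KO (33.7% of WT, adjusted p = 4e-09). Agrn fell to 42.1%, Nid2 to 58.0% and Col5a1 to 51.9%. The laminin genes Lamb1 and Lama4 rose 2.21-fold and 5.93-fold. Among the fibroblast markers, 10 of 20 were tested, 3 of them through DDX6 KO only, and Fbn1, Timp3 and Tagln were higher while Fn1, Col5a1 and Vim were lower.

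**Figure D4:**
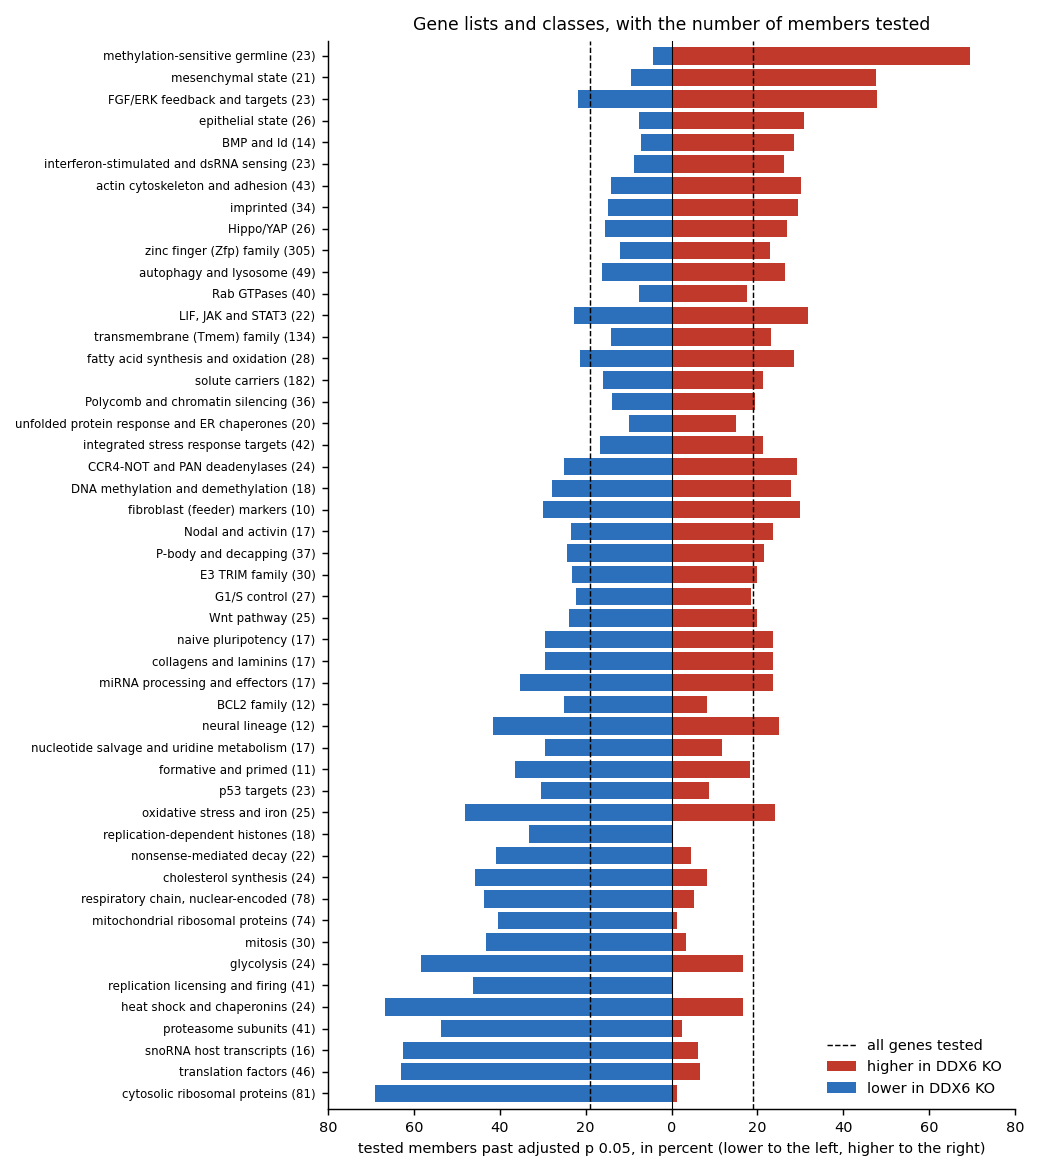
Share of the tested members of each list or class that passed (horizontal axis, percent, higher in DDX6 KO to the right in red and lower to the left in blue) for each list with at least 10 tested members (vertical axis, number tested in parentheses). Dashed lines mark the 19.0% and 18.9% of all genes tested, germline genes reach 69.6% higher and cytosolic ribosomal proteins 69.1% lower, and the order of the 2 shares turned in some settings for P-body, miRNA, integrated stress response, unfolded protein response, G1/S, Wnt, fatty acid, nucleotide, oxidative stress and TRIM genes.

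Of 305 tested zinc finger genes of the Zfp series, 70 (23%) were higher and 37 (12.1%) lower, beside 19.0% and 18.9% of all genes tested. Of the 16 on chromosome 6, 14 were higher. Among the 289 outside it, 56 (19.4%) were higher and 37 (12.8%) lower, beside 16.8% and 19.6% of all genes there. With chromosome 6 included, the shares were 21.4% higher and 15.9% lower for 182 solute carriers and 23.1% and 14.2% for 134 genes of the Tmem series. They were 17.5% and 7.50% for 40 Rab GTPases, and 20% and 23.3% for 30 TRIM proteins, the last pair being turned by 3 settings. Of 6 tested protocadherins and cadherins, 2 were lower and none higher. By class of transcript, protein-coding genes made up 10769 of those tested. Of 104 long intergenic RNAs 27 were lower and 15 higher, and of 185 processed pseudogenes 59 were lower and 4 higher. Reads of a processed pseudogene can come from its parent gene. Of 63 tested small nucleolar RNAs, 22 were higher and 9 lower, although these RNAs have no poly(A) tail as mature molecules.

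The changes also varied with the level and the 3′ UTR of a gene. The genes were divided into 4 groups of equal size by their mean level. In the group of highest level, 990 of 2845 (34.8%) were lower and 465 (16.3%) higher, with a median log2 fold change of -0.13. The lists above were not compared with genes matched for level, and the part of level in their shares was not tested. In the group of lowest level 277 (9.74%) were lower and 516 (18.1%) higher, with a median of 0.16. Divided in the same way by the length of the 3′ UTR, the group with the shortest (median 226 bases) had 329 genes higher and 701 lower, and the group with the longest (median 3200 bases) had 718 higher and 385 lower.

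Spearman's rho between 3′ UTR length and log2 fold change was 0.161 over 10681 genes, 0.165 in clone 1 and 0.149 in clone 2, and 0.166 outside chromosome 6. It was -0.096 for the GC content of the 3′ UTR and -0.076 for GC at the third codon position. For the number of AU-rich elements in the 3′ UTR, which was not divided by its length, it was 0.098. These are descriptions across genes, which share libraries and are not independent replicates, and the features are correlated with one another.

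**Figure D5:**
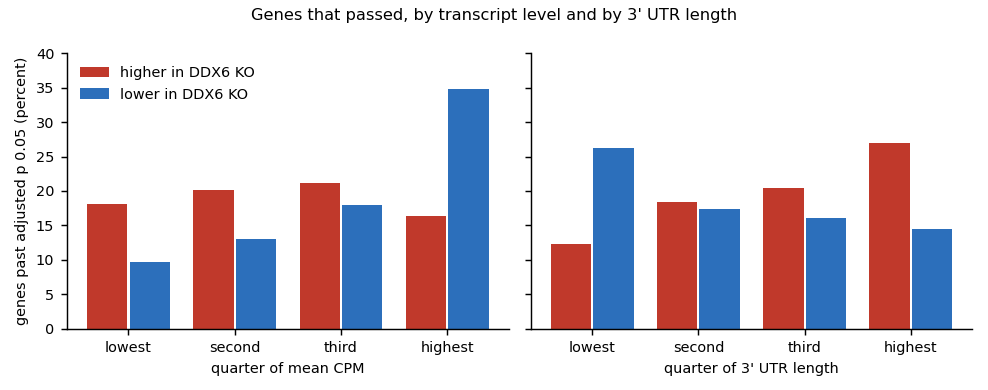
Percent of genes that passed as higher (red) or lower (blue) in DDX6 KO (vertical axis) in 4 equal groups of genes by mean CPM (left) and by 3′ UTR length (right), from lowest to highest along the horizontal axes. Lower genes reach 34.8% in the group of highest level and 26.2% in that of the shortest 3′ UTRs, and higher genes reach 26.9% in that of the longest 3′ UTRs.

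The clones differed most on the Y chromosome. Ddx3y had 94.7, 77.5 and 82.2 CPM in WT, 137 and 147 CPM in clone 1, and 0.711 and 0.856 CPM in clone 2. Uty had 13.3, 10.1 and 11.4 CPM in WT, 28.1 and 28.4 CPM in clone 1, and no count in clone 2. Eif2s3y had 7.85, 8.69 and 2.98 CPM in WT, 31.8 and 34.0 CPM in clone 1, and 0.711 and 0 CPM in clone 2. For each gene clone 1 was higher than WT and clone 2 was near or at 0, so their means over all 4 knockout libraries describe neither clone.

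DDX6 KO was finally contrasted with DGCR8 KO, in a fit over all 10 libraries in which 5144 of 11683 genes (44.0%) passed. The ranked genes were chosen on the DDX6 KO libraries used again here, so their values are a description. Of the 10 largest increases outside chromosome 6, 6 were higher in DDX6 KO than in DGCR8 KO and 4 did not pass. Of the 10 largest decreases, 6 were lower in DDX6 KO and 4 did not pass. Some of the ranked genes were near the WT level in DGCR8 KO. On the scale of the 10 libraries, Igfbp7 was at 0.814 ± 1.08 CPM in DGCR8 KO (SD, n = 3) and 40.3 ± 18.3 CPM in DDX6 KO, Rbm24 at 0.713 ± 0.636 and 22.2 ± 3.68 CPM, and Emp1 at 38.8 ± 3.50 and 269 ± 43.0 CPM. Others were close in the knockouts. Ubd was at 187 ± 28.6 CPM in DGCR8 KO and 198 ± 15.5 CPM in DDX6 KO, a difference of 0.10 on the log2 scale (adjusted p = 0.512), and Smyd1 at 52.3 ± 2.07 and 63.1 ± 19.8 CPM. Dnah8 stood on either side of WT in the knockouts, at 63.7 ± 9.07 CPM in WT, 107 ± 3.14 CPM in DGCR8 KO and 7.68 ± 1.37 CPM in DDX6 KO (log2 difference between the knockouts -3.80, adjusted p = 1.67e-10), and Ddx6 itself was at 498 ± 19.7 CPM in DGCR8 KO.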

How the data were processed

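QuantSeq 3′ FWD libraries were prepared from total RNA. The deposited counts are raw whole numbers of reads per gene: the authors trimmed reads with cutadapt 1.14, kept uniquely mapped reads from STAR 2.5.3a on mm10, and counted the sense strand with featureCounts 1.5.3, per the file header, against Gencode without rRNA genes and with 92 ERCC spike-ins. No molecular identifiers are stated, so floors cover counting error only. Symbols, coordinates and 3′ UTRs came from a GRCm38 annotation, in which 51274 of 51467 identifiers had a symbol and 193 had none.

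Spike-in rows were set apart. Genes reaching 3 CPM in 3 or more of the 7 libraries were kept, scaled by TMM (edgeR 4.0.16) and fitted with limma-voom (limma 3.58.1, R 4.3.3) with genotype as the only term. The study used limma and this filter. P-values are two-sided and Benjamini-Hochberg adjusted over all genes tested, with a threshold of 0.05. The clones were separated in a second fit. The 4 DDX6 KO libraries entered as 4 replicates although they come from 2 clones, so the fit treats libraries of 1 clone as independent. CPM values use TMM-scaled totals, and the fold is 2 to the power of the fitted log2 fold change. The procedure was tested on simulated data.

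The genes named are Ddx6, the 10 largest increases and decreases outside chromosome 6 and the 4 and 2 on it under the criteria given in the text, and for each list up to 4 members of smallest adjusted p in the more frequent direction and up to 2 in the other. The lists and this rule were chosen with earlier results of these data known, and no list was tested as a set. The chromosome 6 marking, Y-linked genes and markers were likewise known. Alternatives included DESeq2 1.42.0, edgeR's quasi-likelihood test, other scalings and filters, and each library left out. Some genes that the rule names are not reported here.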

Additional observations from a re-analysis of the deposited data

Results flagged for a closer look

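The clones differed in 5 genes by a test of the difference itself (limma-voom, clone 2 minus clone 1, log2 scale). The difference was -7.48 for Uty (adjusted p = 2.37e-06), -7.23 for Ddx3y (adjusted p = 2.37e-06) and -6.54 for Eif2s3y (adjusted p = 0.00055), all on the Y chromosome, where both clone 1 libraries were above every WT library and both clone 2 libraries below. It was -2.17 for Ddx6 and -1.95 for Rhox5. The cause of each was not tested.

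In 2 ranked genes, 1 of the 4 DDX6 KO libraries was flagged by its gap from the other 3 relative to the range. For Khdc3 it was a clone 1 library at 10.9 CPM, beside 4.56 to 5.33 CPM, a gap of 0.878 of the range. For Ldhb it was a clone 2 library at 8.89 CPM, beside 7.37 to 7.42 CPM, a gap of 0.969 of the range. The other 3 Ldhb values were nearly equal and no DDX6 KO library exceeded 26 counts, so the gap is small in level. Chance places about 1 in 20 groups past this limit. Both genes stayed under every WT library.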

How the results depend on the processing

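The 27 genes named by rank kept their sign and stayed past the threshold in all alternatives that tested them, and none of the 246 named genes changed sign. The alternatives use the libraries on which these genes were chosen, so this outcome is partly set by that choice. Spike-in scaling had the largest effect: 367 genes were higher and 146 lower at the adjusted p threshold, all of them beyond the fold threshold as well, and 170 of the 246 named genes no longer passed. Spike-in totals varied between libraries of a genotype. At least 10 CPM as the filter gave 526 higher and 234 lower genes past both thresholds, having tested fewer genes, and clone 1 alone gave 1408 lower genes, having fewer libraries. The chromosome 6 median was 0.72 with total counts, 0.66 with spike-ins, 0.42 without a filter and 0.64 in clone 1 alone. Over the fits that each left out 1 library, the genes past the threshold ranged from 1447 to 2017 higher and 1677 to 2081 lower, the lowest counts coming without WT library 3. Of the named genes 16 no longer passed without WT library 3 and 10 without WT library 2. DESeq2 gave 1894 higher and 1885 lower genes. Depth limits genes near 0.632 to 1.41 CPM, where 3 counts lie.

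The library numbers in the titles were not taken to pair the libraries, since same-number correlations of deviations were 0.012 to 0.207 and not all over 0.1, although each library with a partner of its number correlated best with it. The second principal component (11% of the variance) also separated the libraries numbered 1 (11.2 to 26.95) from the others (-14.14 to -9.25). With the number as a replicate block, 1633 genes were higher and 1797 lower, 702 and 419 past both thresholds, and 12 of the 246 named genes no longer passed.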

Other observations

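Gene families that share the start of their symbol were counted where at least 20 members were tested, with names chosen after the values were seen. Symbols starting with Zbtb, which are mostly transcriptional repressors with zinc fingers, gave 12 of 35 higher and 3 lower, a median log2 fold change of 0.25 with no member on chromosome 6. Those starting with Sec, which include many proteins of vesicle transport, gave 10 of 24 higher and 2 lower, and 8 and 2 of 22 without chromosome 6. Those starting with Arl, which are small GTPases of membrane traffic, gave 9 of 21 higher and 4 lower. Kinesins (Kif) gave 8 of 30 higher and 2 lower. Subunits of RNA polymerases (Polr) gave 9 of 28 lower and 3 higher, and Klhl genes, many of which are ubiquitin ligase adaptors, 8 of 20 lower and 3 higher. Over all genes tested the shares were 19.0% higher and 18.9% lower.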
